A study of Prunus sibirica with 6 samples.

Results

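The gene for delta-1-pyrroline-5-carboxylate synthase A (P5CS A, PARG19000) was taken by its identifier, as 1 of 31889 genes in the table. It was set beside the other 5 genes whose descriptions name pyrroline-5-carboxylate or proline dehydrogenase. RNA had been sequenced from whole flowers of Prunus sibirica, the Siberian apricot, an early-blooming tree. The groups were clone 338, with strong frost resistance, and clone 28, with weak frost resistance, with 3 libraries each. All flowers of both clones were in bloom and under natural frost at -4 °C when they were collected, so no unfrosted flower is part of the comparison. Each kind of resistance is represented by a single clone, so that frost resistance and any other trait in which clones 338 and 28 differ cannot be told apart. Whether libraries of the same clone are separate trees is not stated in the labels. The p-values therefore describe the spread of these 6 libraries, and part of that spread may be technical.

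Proline is an amino acid that many plants accumulate under cold, drought and salt, where it serves as a compatible solute, and it is also abundant in pollen. P5CS carries out the first and rate-limiting part of its synthesis from glutamate, through a kinase and a reductase activity in a single protein, and pyrroline-5-carboxylate (P5C) reductase completes it. Breakdown runs in mitochondria, where proline dehydrogenase returns proline to P5C and P5C dehydrogenase returns P5C to glutamate. In Arabidopsis, from which the description P5CS A is taken, this form is known for its induction by osmotic stress and abscisic acid, while the other form of the enzyme is tied to development and flowering.

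Between 16367632 and 18866306 reads per library were assigned to genes. Levels are given in FPKM, that is, fragments per kilobase of gene length after the authors' scaling between libraries. The library size implied by that scaling was 1.35, 1.18 and 1.42 times the assigned reads in strong libraries 1, 2 and 3. In weak libraries 1, 2 and 3 it was 0.618, 0.663 and 1.21 times the assigned reads. Of 9 genes described as floral homeotic proteins, which specify floral organs, 6 had at least 1 FPKM in all 6 libraries. A pollen list of 131 genes summed to 13801 to 30346 FPKM in the strong clone and 27487 to 89425 FPKM in the weak clone, with 22 of its genes at 0 in every library. The FPKM of all genes summed to 464129 to 591204 in the strong libraries and 580337 to 1217400 in the weak libraries, and the pollen list made up 2.97% to 5.13% of it in the strong clone and 4.74% to 7.35% in the weak clone, so that these shares overlapped. A green tissue list of 61 genes summed to 5866 to 6823 FPKM in the strong clone and 3957 to 4272 FPKM in the weak clone, with 5 at 0 in every library, or 0.992% to 1.47% of all FPKM in the strong clone and 0.325% to 0.710% in the weak clone. The pollen gene described as LAT52 was at 1059 to 2618 FPKM in the strong clone and 2391 to 8917 FPKM in the weak clone. In whole flowers, fewer cells of a type and less RNA per cell cannot be told apart. The part of pollen and green tissue in the differences described here was not tested. Weak library 3 stood apart from weak libraries 1 and 2 and was nearer to each strong library in its reads over genes. Chi-square per degree of freedom, larger for less alike libraries, was 76.9, 54 and 147.9 against strong libraries 1, 2 and 3. Against weak libraries 1 and 2 it was 215.6 and 194. The cause was not tested. Leaving weak library 3 out gave 12075 genes that differed between the clones, against 2520 with all libraries (15.3% of 16462 tested).

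P5CS A was higher in the strong clone. The gene lies on linkage group 5, from 22211365 to 22217170 on the minus strand of the authors' assembly, with a gene length of 2052 bases in the table. Its level was 43.1, 45.1 and 53.3 FPKM in strong libraries 1, 2 and 3, against 15.4, 21.4 and 30.8 FPKM in weak libraries 1, 2 and 3. The lowest strong library was above the highest weak library, and weak library 3 was nearest to the strong clone. These values rest on 2015, 1799 and 2939 reads in the strong libraries and on 328, 476 and 1314 reads in the weak libraries. Mean levels were 47.2 ± 5.40 FPKM in the strong clone and 22.5 ± 7.75 FPKM in the weak clone (SD, n = 3 each).

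The log2 difference of P5CS A, strong minus weak on the log2(FPKM + 1) scale, was 1.08 ± 0.28 (SE), and limma gave an adjusted p of 0.0477, just under the threshold of 0.05. An exact permutation test on the 6 FPKM values gave p = 0.1 (two-sided), the smallest that 3 against 3 libraries allow. Of all tested genes, 7.53% were called higher and 7.78% lower in the strong clone, and 23.3% had all strong libraries above all weak libraries. Among tested genes 2521 had a larger positive difference than P5CS A, and of the 1239 called higher 266 had a smaller one. The call was lost with a pseudocount of 0.1 FPKM, without the filter on low values, with library sums made equal and with limma voom on reads (adjusted p = 0.0541, 0.0550, 0.0518 and 0.0555), and also without any 1 of strong libraries 1 to 3 or weak libraries 1 and 2 (adjusted p from 0.105 to 0.182). Without weak library 3 the difference was 1.32 ± 0.19 with an adjusted p of 0.00113, in a fit that called 73.4% of all tested genes.

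**Figure D1:**
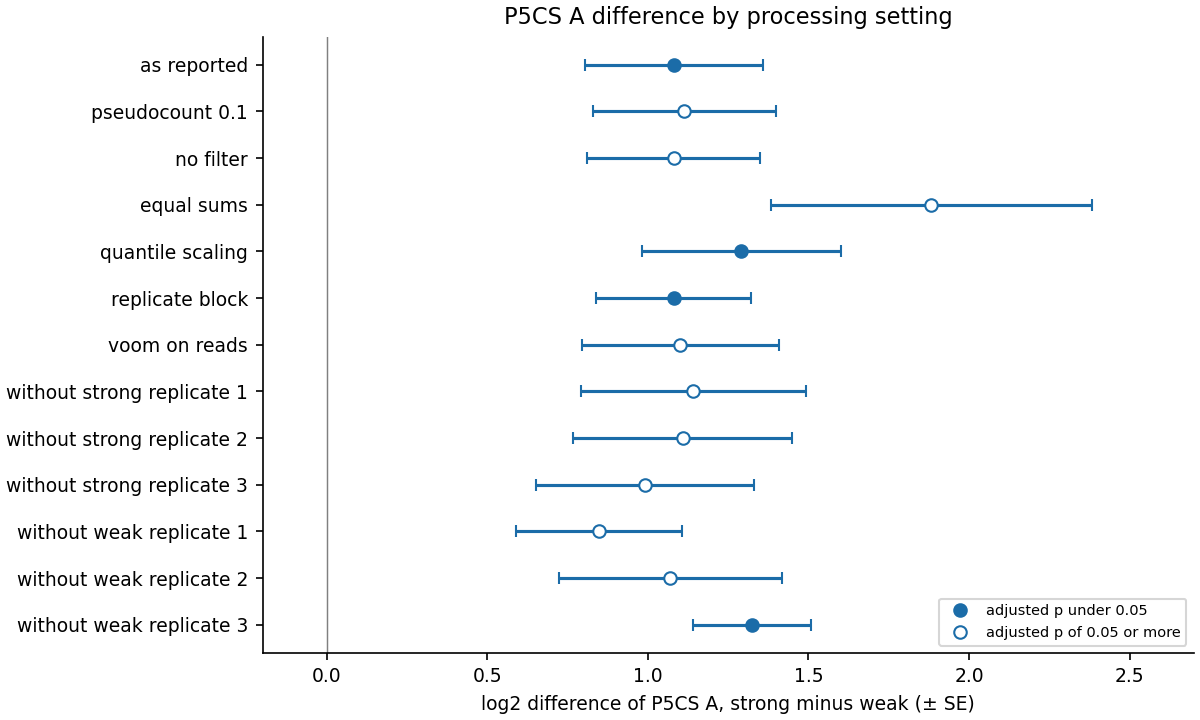
Log2 difference of P5CS A between the strong and weak clones (horizontal axis, points with SE) under the reported fit and each alternative (rows); filled points had an adjusted p under 0.05. The difference stayed between 0.85 and 1.88, and 4 of the 13 points are filled: the reported fit, quantile scaling, the fit with replicate number as a block and the fit without weak library 3.

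The place of P5CS A within each library does not depend on scaling between libraries. In the ranking of all tested genes by FPKM, P5CS A stood at percentiles 87.2, 87.1 and 90.1 in strong libraries 1, 2 and 3, against 63.4, 70.6 and 81.3 in weak libraries 1, 2 and 3. All strong libraries ranked it above all weak libraries. When library sums were made equal, the difference of P5CS A was 1.88 ± 0.50, but the median of all tested genes also moved to 0.76, against 0.05 as deposited. Relative to that median, P5CS A differed by 1.13 with equal sums and by 1.03 as deposited.

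The second P5CS gene (PARG02506, linkage group 1, 19382014 to 19389132, minus strand), described by the enzyme's name without a letter, did not pass the test. It was at 36.1, 49.3 and 34.2 FPKM in strong libraries 1, 2 and 3, against 97.1, 91.5 and 35.1 FPKM in weak libraries 1, 2 and 3. Weak libraries 1 and 2 were above every strong library, while weak library 3 lay among the strong libraries, and the groups overlapped. Its log2 difference was -0.77 ± 0.42 (SE, limma adjusted p = 0.183), or 0.05 with equal sums. Reads shared between the P5CS genes could have been assigned to either of them, which the table does not show.

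The summed FPKM of both P5CS genes overlapped between the clones as deposited but not with equal sums. The proportions of the sum, which scaling by a single factor per library does not change, did not overlap. The sum was 79.2, 94.4 and 87.5 FPKM in strong libraries 1, 2 and 3, against 112.5, 112.9 and 65.9 FPKM in weak libraries 1, 2 and 3. With equal sums, a scaling applied to this sum after its values were seen, it was 117.6, 118.7 and 140.2 in the strong libraries, against 68.7, 75.8 and 84.4 in the weak libraries. P5CS A made up 54.4%, 47.8% and 60.9% of that sum in the strong libraries, against 13.7%, 18.9% and 46.8% in the weak libraries. Weak libraries 1 and 2 had mostly the second form, while the share in weak library 3 was just below that of strong library 2. On the log2 scale the ratio of P5CS A to the second P5CS averaged 0.26 ± 0.38 over the strong libraries and -1.65 ± 1.29 over the weak libraries (SD, n = 3 each).

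**Figure D2:**
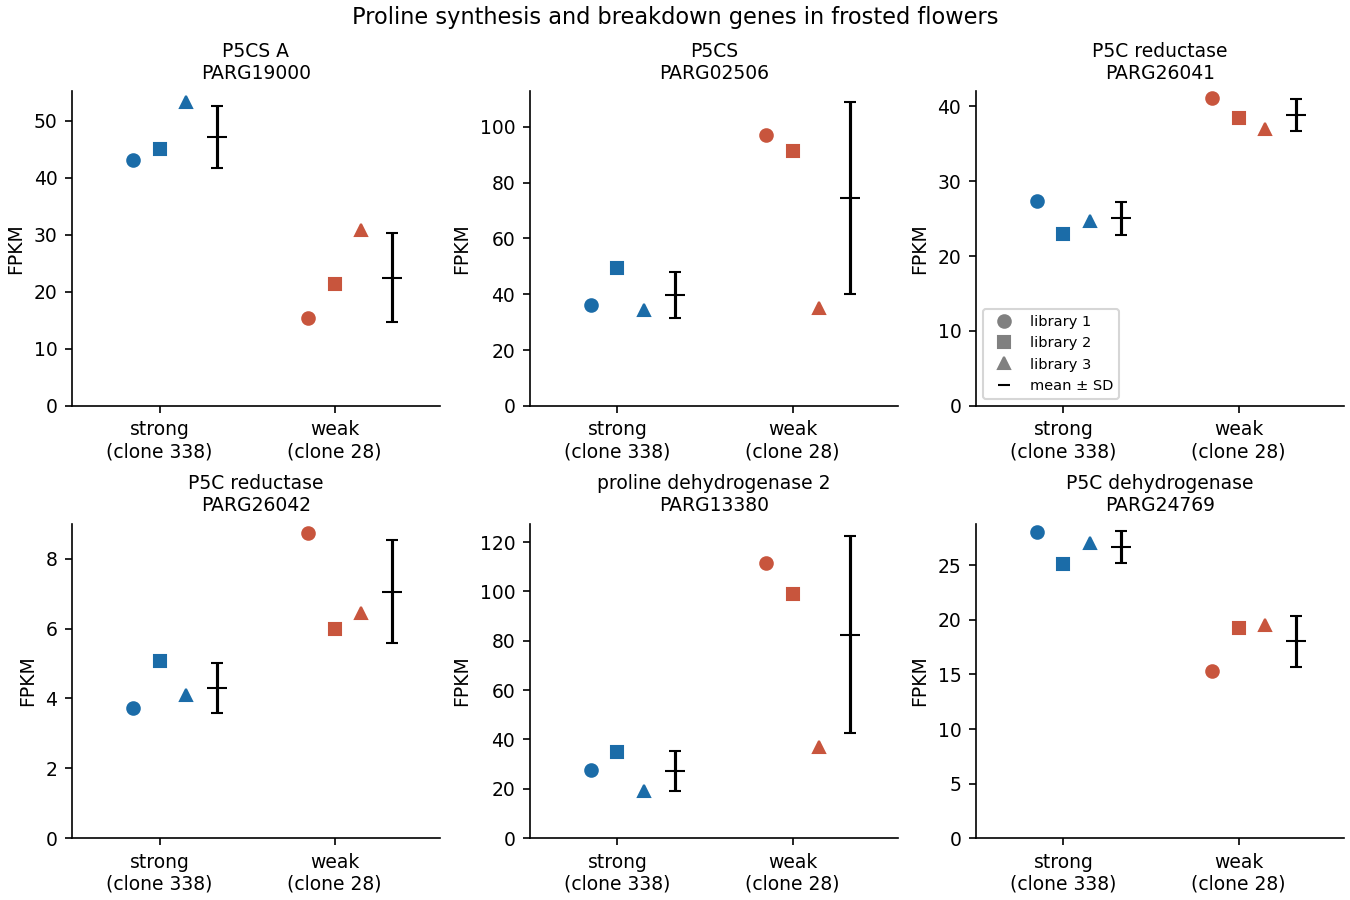
FPKM (vertical axes, from 0) of the 6 genes of proline synthesis and breakdown in the strong clone (left, blue) and the weak clone (right, red); symbols are libraries 1 to 3, and bars are mean ± SD. P5CS A and P5C dehydrogenase were above the weak clone in every strong library, both P5C reductase genes and proline dehydrogenase 2 were below it, and the second P5CS gene overlapped because of weak library 3.

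Both genes for P5C reductase, which makes proline from P5C, lie next to each other on linkage group 8, and neither passed the test. The more abundant gene (PARG26041, 6345884 to 6350369) was at 27.4, 23.0 and 24.7 FPKM in strong libraries 1, 2 and 3, against 41.1, 38.5 and 36.9 FPKM in weak libraries 1, 2 and 3. The groups did not overlap, and weak library 3 stayed with its own group here. Its log2 difference was -0.62 ± 0.17 (SE, limma adjusted p = 0.0564) as deposited and 0.19 with equal sums. The less abundant gene (PARG26042, 6351114 to 6355652) was at 3.72, 5.08 and 4.11 FPKM in the strong libraries, against 8.75, 5.99 and 6.45 FPKM in the weak libraries. The groups did not overlap, and its log2 difference was -0.60 ± 0.23 with SE (adjusted p = 0.0908 by limma) as deposited and 0.10 with equal sums. Relative to the median of all tested genes the differences of this pair with equal sums were -0.56 for PARG26041 and -0.65 for PARG26042.

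Proline dehydrogenase 2 (PARG13380, linkage group 4, 3925908 to 3928859, minus strand), the only gene described as the first enzyme of proline breakdown, was at 27.5, 35.0 and 19.1 FPKM in strong libraries 1, 2 and 3, against 111.3, 99.1 and 36.8 FPKM in weak libraries 1, 2 and 3. The groups did not overlap, but weak library 3 was within 2 FPKM of strong library 2. The gene did not pass the test, with a log2 difference of -1.45 ± 0.46 (SE, limma adjusted p = 0.0693). It passed with replicate number as a block (limma adjusted p = 0.012) and without weak library 3 (-1.95, limma adjusted p = 0.000873). With equal sums its difference was -0.64, or -1.39 relative to the median of all tested genes. P5C dehydrogenase (PARG24769, linkage group 7, 15484880 to 15493114, minus strand), the next enzyme of breakdown, ran the other way. It was at 28.0, 25.1 and 27.0 FPKM in the strong libraries, against 15.4, 19.3 and 19.5 FPKM in the weak libraries. The groups did not overlap, and the gene did not pass the test either (0.55 ± 0.18, limma adjusted p = 0.0740), except with quantile scaling (adjusted p = 0.0462) and without weak library 3 (adjusted p = 0.0103). With equal sums its difference was 1.34, or 0.59 relative to the median.

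Of the 6 genes, 1 was called higher and 0 lower, where 7.53% and 7.78% of all tested genes were. Without an adjustment, the limma p was under 0.05 for 5 of the 6, all but the second P5CS gene. The share of all tested genes under that unadjusted p was not computed, so this count cannot be read as unusual. Limma voom on reads called 0 of the 6, where it called 2208 of all 16462 tested genes. Without weak library 3 all 6 passed, 2 higher and 4 lower, in the fit that called 38.0% of all genes higher and 35.4% lower. The median log2 difference of the 6 was -0.61, against 0.05 over all tested genes. Strong libraries lay wholly above weak libraries for 2 genes and wholly below for 3, against 23.3% and 22.1% of all tested genes.

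The order of the 6 genes by FPKM differed between the clones. P5CS A was first in strong libraries 1 and 3 and second in strong library 2, and it had rank 4 in each of the weak libraries. In the strong clone P5CS A and the second P5CS gene overlapped at the top, followed by proline dehydrogenase 2, P5C dehydrogenase and PARG26041, which overlapped one another. In the weak clone proline dehydrogenase 2 (82.4 ± 39.9 FPKM), the second P5CS gene (74.6 ± 34.3 FPKM) and PARG26041 (38.8 ± 2.11 FPKM) had the highest means (SD, n = 3 each). These 3 overlapped, since in weak library 3 PARG26041 was first at 36.9 FPKM, with proline dehydrogenase 2 at 36.8 FPKM and the second P5CS gene at 35.1 FPKM. P5CS A and P5C dehydrogenase overlapped below them. PARG26042 was last in every library.

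Set against proline dehydrogenase within each library, P5CS A had the higher level of the pair in every strong library and the lower level in every weak library. The ratio of P5CS A to proline dehydrogenase 2 in FPKM was 1.57, 1.29 and 2.79 in strong libraries 1, 2 and 3, against 0.139, 0.216 and 0.836 in weak libraries 1, 2 and 3. All strong libraries were above 1 and all weak libraries below it. The log2 ratio, with 1 FPKM added to each gene, averaged 0.81 ± 0.56 over the strong libraries and -1.73 ± 1.32 over the weak libraries (SD, n = 3 each), a difference of 2.53 (exact permutation p = 0.1, two-sided, the smallest possible). As P5CS A was wholly higher and proline dehydrogenase 2 wholly lower in the strong clone, their ratio had to separate the clones. This p therefore adds nothing to the levels of the separate genes. The ratio of P5C dehydrogenase to proline dehydrogenase 2, both of breakdown, was 1.02, 0.717 and 1.41 in the strong libraries, against 0.138, 0.195 and 0.529 in the weak libraries. That separation also followed from the levels of its genes, which did not overlap and ran opposite ways. The log2 ratio of P5CS A to P5C dehydrogenase overlapped between the clones, at 0.62, 0.85 and 0.98 in the strong libraries and 0.0064, 0.15 and 0.66 in the weak libraries.

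**Figure D3:**
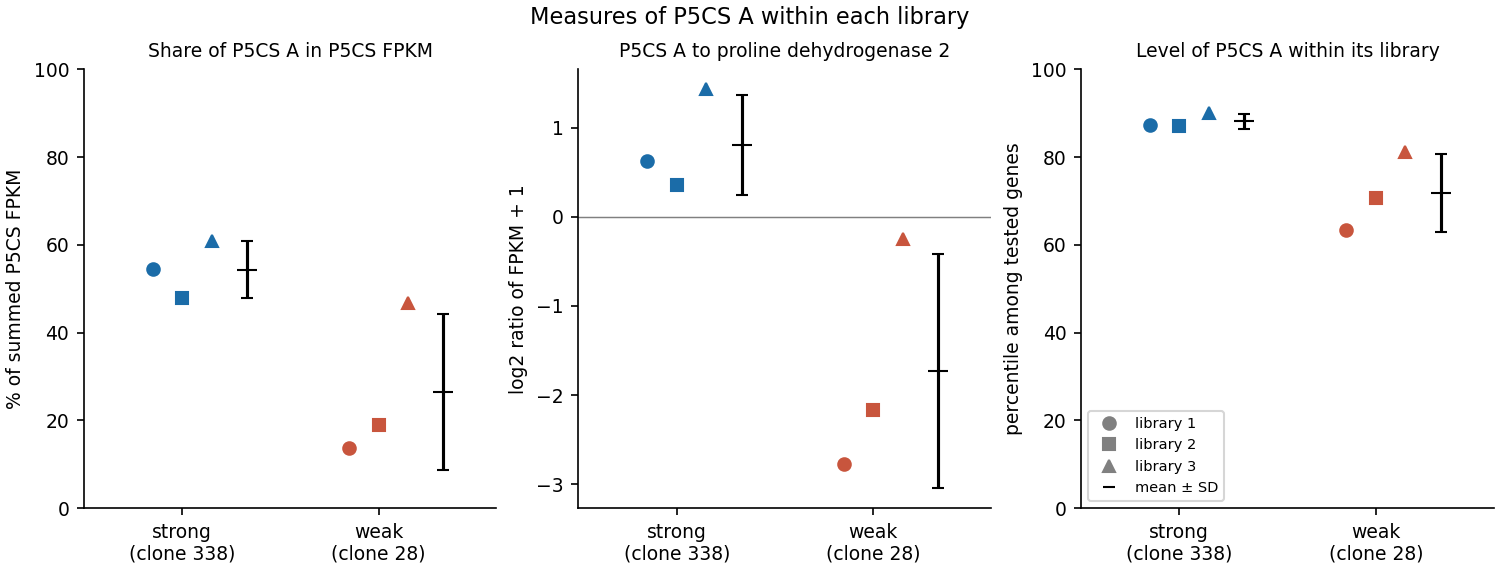
P5CS A within each library of the strong clone (left in each panel, blue) and the weak clone (right, red): its percentage of the summed FPKM of both P5CS genes, its log2 ratio to proline dehydrogenase 2 with 1 FPKM added, and its percentile among tested genes. Symbols are libraries 1 to 3 and bars are mean ± SD; strong libraries are above weak libraries in all panels, and weak library 3 is the nearest to them.

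For genes that supply glutamate and ornithine, the precursors of P5C, the counts of calls were near the background. Of 38 genes that matched the list's words, 30 were tested, 3 were higher and 2 lower, where 7.53% and 7.78% of all genes were, with a median of 0.03. With equal sums 5 were higher and 1 lower, where 9.52% and 4.54% of all genes were, and the median was 0.73. Without weak library 3 the list had 20 calls, where 73.4% of all genes were called. Without any other library it had 0, where only 166 to 610 of all 16462 genes were called. The words also matched genes outside the route, among them a mago nashi homolog (PARG17941) annotated with an arginase domain, which was among the 3 that were higher (1.12 ± 0.28, limma adjusted p = 0.0440). Arginase 1 (PARG18026), which releases ornithine from arginine in mitochondria, was at 144.5, 151.7 and 160.0 FPKM in strong libraries 1, 2 and 3, against 19.1, 35.2 and 66.5 FPKM in weak libraries 1, 2 and 3. Every strong library was above every weak library (2.06 ± 0.43, limma adjusted p = 0.0308). Also higher was an amino-acid acetyltransferase gene (PARG02061) of arginine synthesis, named after its values were seen (0.73 ± 0.18, limma adjusted p = 0.0456).

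The 2 genes of this list that were lower in the strong clone are described as enzymes of nitrogen assimilation. A glutamine synthetase nodule isozyme (PARG14286) was at 31.7, 59.3 and 31.0 FPKM in strong libraries 1, 2 and 3, against 336.0, 281.1 and 81.8 FPKM in weak libraries 1, 2 and 3 (-2.32 ± 0.58, limma adjusted p = 0.0449). NADH-dependent glutamate synthase (PARG19642) was at 30.0, 42.4 and 24.9 FPKM in the strong libraries, against 84.7, 81.6 and 56.0 FPKM in the weak libraries (-1.18 ± 0.28, limma adjusted p = 0.0405). In both genes the groups did not overlap, but each lost its call under 7 of the 12 alternatives. PARG19642 lost it with equal sums (-0.36, limma adjusted p = 0.198) and with voom on reads (adjusted p = 0.0555), among others. PARG14286 lost it with a pseudocount of 0.1 FPKM (limma adjusted p = 0.0522) and without the filter (adjusted p = 0.0553), among others. The next examples, named after their values were seen, did not pass the test. The leaf glutamine synthetase of chloroplasts (PARG05590) was at 79.1, 71.7 and 85.7 FPKM in the strong libraries and 1.65, 7.99 and 36.3 FPKM in the weak libraries (3.05 ± 0.88, limma adjusted p = 0.0590). Ornithine aminotransferase (PARG11883), which makes P5C from ornithine, was at 29.6, 38.5 and 32.2 FPKM in the strong libraries and 62.8, 65.1 and 35.6 FPKM in the weak libraries (-0.65 ± 0.28, limma adjusted p = 0.120, and a difference of 0.17 with equal sums).

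Among enzymes that draw on glutamate or arginine for other products, 18 genes matched and 12 were tested, of which 1 was higher and 4 lower, where 7.53% and 7.78% of all genes were (median -0.67). Glutamate decarboxylase 4 (PARG25325), which makes gamma-aminobutyrate from glutamate, was at 83.9, 103.9 and 82.8 FPKM in strong libraries 1, 2 and 3, against 416.9, 448.7 and 185.4 FPKM in weak libraries 1, 2 and 3. The groups were well apart, with a log2 difference of -1.85 ± 0.39 (SE, limma adjusted p = 0.0313). Of the genes described as glutamate decarboxylase 1, PARG16074 (-1.12 ± 0.22, on 10 to 42 reads per strong library and 43 to 87 reads per weak library) and PARG16075 (-1.44 ± 0.37) were lower, the second of them named after its values were seen. An arginine decarboxylase gene of polyamine synthesis (PARG03913) differed by -0.997 ± 0.252. A gene described as thermospermine synthase ACAULIS5 (PARG27676) was higher by 0.79 ± 0.20, on 57 to 90 reads per strong library and 11 to 37 reads per weak library. With equal sums 1 gene of this list was higher and 1 lower, where 9.52% and 4.54% of all genes were, and the median was 0.04. The list had 10 calls without weak library 3, where 73.4% of all genes were called. It had 0 without any other library, where only 166 to 610 of all 16462 genes were called.

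**Figure D4:**
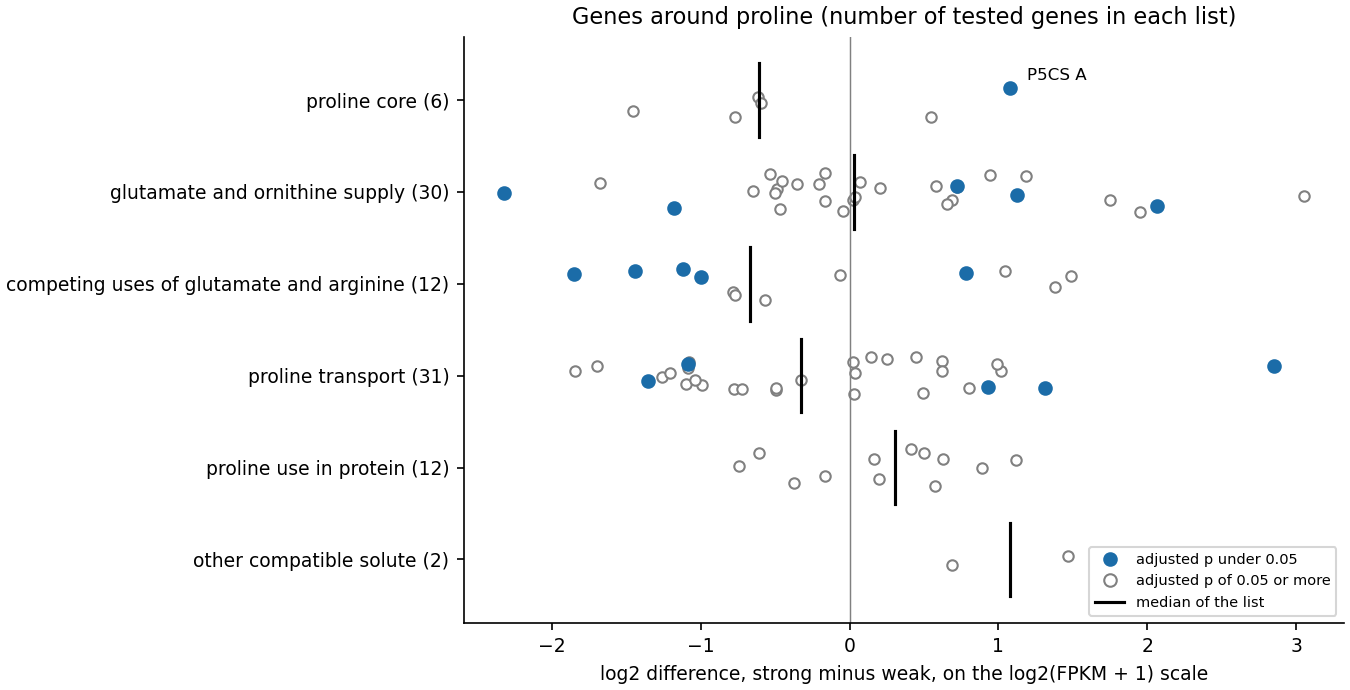
Log2 differences, strong minus weak (horizontal axis), of tested genes in 6 lists around proline, with the number of tested genes in brackets; filled points had an adjusted p under 0.05 and black lines are list medians. P5CS A is the only filled point among the 6 genes of the proline core, and the lists for supply, competing uses and transport hold filled points on both sides of 0.

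The list of proline and amino acid transporters matched 48 genes, of which 31 were tested, 3 were higher and 2 lower, where 7.53% and 7.78% of all genes were (median -0.33). With equal sums 2 were higher and 1 lower, where 9.52% and 4.54% of all genes were (median 0.50). Without weak library 3 the list had 23 calls, where 73.4% of all genes were called. Without any other library the list had 0, where only 166 to 610 of all 16462 genes were called. Its words also matched cationic amino acid and polyamine transporters. Proline transporter 2 (PARG24514), of a family that carries proline and other compatible solutes, was at 0.998, 0.501 and 0.966 FPKM in strong libraries 1, 2 and 3, against 3.03, 3.79 and 1.93 FPKM in weak libraries 1, 2 and 3. It was lower in every strong library (-1.09 ± 0.26, limma adjusted p = 0.0406), on 54 reads in the strong clone and 104 reads in the weak clone. The most abundant gene described as a proline transporter, proline transporter 1 (PARG19038, named after its values were seen), did not pass the test. It was at 24.9, 33.4 and 17.0 FPKM in the strong libraries and 71.0, 76.7 and 26.2 FPKM in the weak libraries (-1.08 ± 0.46, limma adjusted p = 0.115). A pair of neighbouring genes described as lysine histidine transporter-like 8 on linkage group 6 went opposite ways, with PARG20788 higher by 1.31 ± 0.29 and PARG20789 lower (-1.35 ± 0.32). PARG20788 had 64 to 116 reads per strong library and 0, 0 and 15 reads in the weak libraries, and PARG20789 had 10 to 15 reads per strong library and 39 to 60 reads per weak library. Another gene of that description (PARG07377, 2.85 ± 0.75, named after its values were seen) and amino acid permease 3 (PARG20878, 0.93 ± 0.23, on 53 to 128 reads per strong library and 2 to 27 reads per weak library) were also higher.

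Genes that use proline in proteins or make another compatible solute gave no calls in the reported fit. Of 13 genes for prolyl hydroxylases, proline tRNA ligases and proline iminopeptidases, 12 were tested and 0 were called by limma in either direction, where 15.3% of all genes were. By limma voom on reads 0 were called as well, where 2208 of 16462 genes were. An unadjusted limma p under 0.05 was found for 2, with no share computed over all genes. Without weak library 3, 10 were called, where 73.4% of all genes were. Cytoplasmic proline tRNA ligase (PARG04406), the most abundant, was at 45.9, 38.2 and 48.8 FPKM in strong libraries 1, 2 and 3 and 23.1, 24.2 and 52.0 FPKM in weak libraries 1, 2 and 3 (0.50 ± 0.34, limma adjusted p = 0.263). Of 4 genes for enzymes of glycine betaine synthesis 2 were tested and 0 called by limma or by limma voom. Both had an unadjusted limma p under 0.05, again with no share computed over all genes. Both were called without weak library 3, where 73.4% of all genes were. With quantile scaling 1 was called, where 3187 of 16462 genes were. Betaine aldehyde dehydrogenase 1 (PARG24699) was at 37.2, 31.6 and 40.7 FPKM in the strong libraries and 21.0, 16.3 and 31.6 FPKM in the weak libraries (0.69 ± 0.27, limma adjusted p = 0.1002).

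The genes whose pattern over the 6 libraries was most like that of P5CS A, by Pearson correlation of log2(FPKM + 1) among tested genes, had r of 0.997 to 0.998. The correlation is a description over 6 libraries that fall into separate clones, and it was the highest among many genes. These 5 genes were described as chloroplast ribosomal protein L34 (PARG12106), endoglucanase 24 (PARG21631), an F-box protein (PARG04473), a subunit of the photosynthetic NDH complex (PARG24854) and Rubisco activase (PARG18979). Rubisco activase was at 58.5, 53.9 and 74.6 FPKM in strong libraries 1, 2 and 3, against 6.30, 14.0 and 29.0 FPKM in weak libraries 1, 2 and 3. The ribosomal protein gene was at 22.5, 23.0 and 24.8 FPKM in the strong libraries, against 10.6, 13.8 and 17.8 FPKM in the weak libraries. As in P5CS A, strong library 3 was the highest and weak library 1 the lowest in both of these genes, which were chosen for that likeness.

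As deposited, neighbours of P5CS A on linkage group 5 did not share a common direction. Between PARG18999, on the plus strand, and the 3' end of P5CS A, on the minus strand, lie 628 bases. PARG18999 was at 57.9, 32.4 and 52.8 FPKM in strong libraries 1, 2 and 3 and 9.90, 6.87 and 68.4 FPKM in weak libraries 1, 2 and 3. Weak library 3 was thus above all others (1.38 ± 0.80, limma adjusted p = 0.205). CASP-like protein 5B2 (PARG18998), of a family of membrane proteins, was at 55.8, 50.9 and 57.4 FPKM in the strong libraries and 8.30, 6.54 and 33.3 FPKM in the weak libraries (2.05 ± 0.56, limma adjusted p = 0.0535). Mannose-1-phosphate guanylyltransferase 1 (PARG18997), which makes GDP-mannose, differed by -0.88 ± 0.55. On the other side a YIPF1 homolog (PARG19001) differed by -0.08 ± 0.17, a probable glycosyltransferase (PARG19002) by 1.57 ± 0.49 and folylpolyglutamate synthase (PARG19003), of folate metabolism, by -0.35 ± 0.19. All 6 neighbours missed the threshold, with limma adjusted p from 0.0535 to 0.720. With equal sums every neighbour but PARG18997 (-0.05) was positive, among them PARG19001 (0.73) and PARG19003 (0.44). The median of all tested genes was 0.76 with that scaling.

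**Figure D5:**
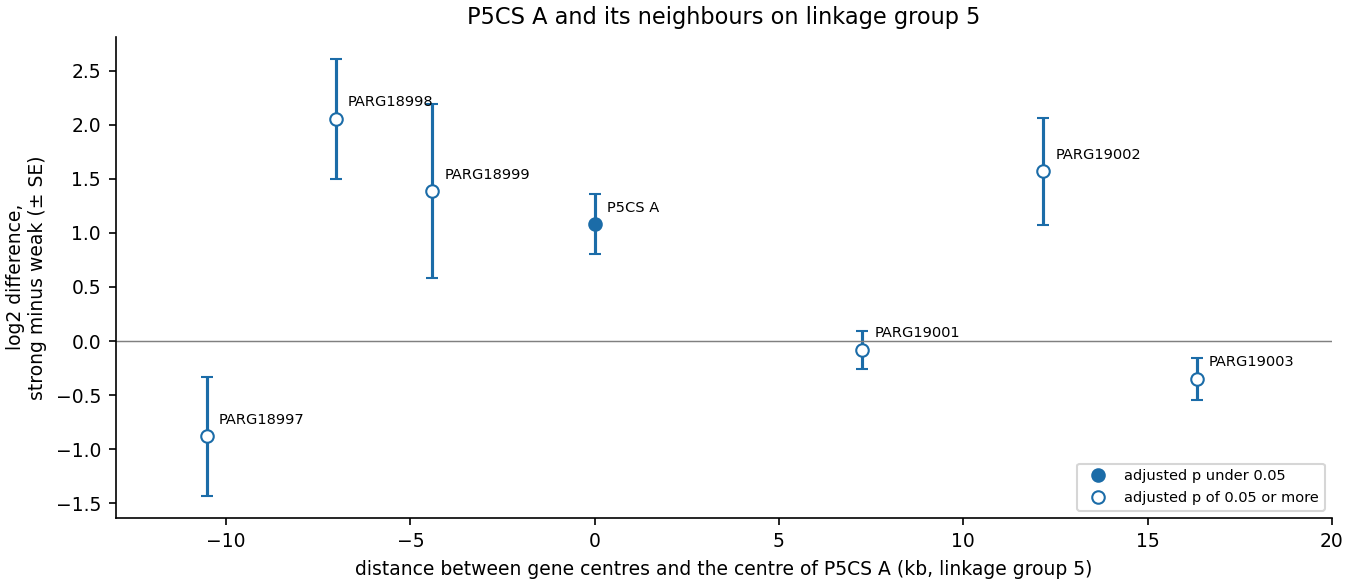
Log2 difference, strong minus weak (vertical axis, points with SE), of P5CS A and the 3 genes on each side of it, by distance of gene centres on linkage group 5 in kilobases (horizontal axis). P5CS A, at 1.08, is the only filled point (adjusted p under 0.05), between neighbours that differed by -0.88 to 2.05.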

How the data were processed

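The deposited file lists FPKM for 31889 genes in 6 libraries, with the position, length and description of each gene. The submitters' processing notes name CASAVA, RSEM and Bowtie2 without versions, and the genome build is not given in the sources used here. Names are those of the descriptions, given by similarity to proteins of other plants and organisms. FPKM times gene length was a whole multiple of 1 step per library for 100% of positive values (tolerance 0.01 read), so the reads behind each value could be computed.

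A gene was tested if it reached 1 FPKM in 3 or more libraries, which left 16462 genes. The test was limma 3.58.1 (R 4.3.3), as a linear model of log2(FPKM + 1) on clone with moderated variances that follow a mean trend. Two-sided p-values were adjusted by the Benjamini-Hochberg method over all tested genes, at a threshold of 0.05. A positive difference means higher in the strong clone, and the scale understates changes of low genes. The fit was tested on simulated data. Exact permutation tests served for values with 1 number per library. No library was a copy of another in a comparison of reads over genes.

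P5CS A, the gene lists and the markers were chosen with earlier results of these data known. Lists are words in the descriptions. Named from each list were up to 4 called genes with the smallest adjusted p or, with none called, the most abundant; the 5 genes most like P5CS A and 3 neighbours on each side were added. Alternatives covered the pseudocount, the filter, equal sums, quantile scaling, voom on reads, the replicate number and each library left out. Voom used the library sizes implied by the deposited FPKM, so it kept the authors' scaling.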

Additional observations from a re-analysis of the deposited data

How the results depend on the processing

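The difference of P5CS A (1.08) was positive under all 12 alternatives and passed the threshold under 3 of them, namely quantile scaling, the replicate block and leaving out weak library 3. It did not pass at 1.11 with a pseudocount of 0.1 FPKM, 1.08 without the filter, 1.88 with equal sums and 1.10 with voom on reads, nor without any other library (0.85 to 1.32 over all 6 libraries left out in turn). With no overlap between the clones, the sign was fixed for the block, the filter, the pseudocount and each library left out. The count of genes that differed between the clones, 2520 (1239 higher and 1281 lower), ran from 166 to 12075 when 1 library was left out. With equal sums it was 2315, of which 1568 were higher and 747 lower. The mean FPKM difference of P5CS A was 24.6 as deposited and 47.6 with equal sums, an alternative chosen after seeing the data, and 21.1 to 28.8 with 1 library left out. Its log2 ratio to proline dehydrogenase differed by 2.01 to 3.27 with 1 library left out and by 2.60 with a pseudocount of 0.1 FPKM. Of 18 other named genes that were called, each lost its call under 5 to 9 of the 12 alternatives, all 18 when any library but weak library 3 was left out, and none without weak library 3 or with the replicate block.

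Reversed in sign with equal sums were the second P5CS gene (0.0502), both P5C reductase genes (0.19 and 0.10), ornithine aminotransferase PARG11883 (0.17), PARG19001 (0.73) and PARG19003 (0.44), and with quantile scaling PARG18997 (0.34) and PARG19001 (0.17). The cause was not tested; equal sums also moved the median of all tested genes to 0.76, against 0.05 as deposited.

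Same-numbered libraries did not consistently pair, with correlations of their deviations from the clone means of -0.236, 0.588 and 0.605 for numbers 1, 2 and 3. Between libraries of unlike number these correlations ran from -0.675 to 0.619. With the replicate block 6439 genes were called, the difference of P5CS A was 1.08 (limma adjusted p = 0.0178), its ratio to proline dehydrogenase differed by 2.53 and its FPKM by 24.6. In this balanced design the block cannot change these differences. An exact permutation test over same-numbered pairs gave p = 0.25 for the ratio and for the FPKM, the smallest that 3 pairs allow. Proline dehydrogenase 2 (PARG13380) had a limma adjusted p of 0.0120 with the block. Of the tested genes, 1 of 12 for proline use in proteins and 1 of 2 for glycine betaine synthesis were called, where 6439 of all 16462 were. Counting error limits the genes of fewest reads, such as PARG20788, PARG20789, PARG20878, PARG16074, PARG24514 and PARG27676, whose libraries hold 0 to 128 reads.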
